A study of Mus musculus with 6 samples.

Results

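The small RNAs described here are the tRNA-derived stress-induced RNAs (tiRNAs), the long tRNA fragments left when a mature tRNA is cut in its anticodon loop. They were taken as every small RNA whose name in the deposited tables begins with tiRNA, a choice that uses no measured value. This gave 38 of the 2334 small RNAs listed, beside 1836 microRNAs (miRNAs) and 460 shorter tRNA fragments (tRFs). The tiRNAs and tRFs together are the 498 tRNA-derived small RNAs (tsRNAs). The 38 tiRNAs belong to 22 tRNAs, each defined by its amino acid and anticodon, and to 13 amino acids.

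The samples were the outer coats of the eye, retinal pigment epithelium (RPE) with choroid and sclera, taken from male mice of 7 to 8 weeks, whose strain the labels do not state. In the group with choroidal neovascularization (CNV), each eye received 25 laser burns near the optic disc (spot of 50 µm, 0.1 s at 100 mW and 532 nm), and the tissue was taken 7 days later. The control eyes came from mice of the same age that received no laser. There were 3 libraries per group, and 4 eyes were pooled for each library. Since the labels do not tie pools to mice, the tests measure the spread between pools, which may be technical in part.

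Angiogenin, a secreted ribonuclease first known for inducing blood vessel growth, cuts mature tRNAs in the anticodon loop when cells are under oxidative, heat or nutrient stress. The cut leaves a 5′ fragment, which runs up to the anticodon, and a 3′ fragment, which runs on to the end of the tRNA. In human cell lines some 5′ fragments reduce translation initiation and promote stress granules, and in many tissues fragments of glycine and glutamate tRNAs are among the abundant ones. Laser burns rupture Bruch's membrane, the layer under the RPE, and new vessels grow through the break, so the tissue is one in which injury and vessel growth occur together.

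A tiRNA's name holds its amino acid, its anticodon and a running number, and does not say whether the fragment is 5′ or 3′. The sequences of the numbered fragments were not used here. Of the 22 tRNAs, 21 have nuclear genes of the same anticodon among the 407 mouse tRNA genes whose RefSeq symbol (assembly GRCm38.p6) gives one. The exception is Ile-GAT, for which no such nuclear gene is listed and which is the anticodon of a mitochondrial tRNA. A further 12 of the 22 share an anticodon with a mitochondrial tRNA, 13 in all, and their names do not tell the nuclear tRNA from the mitochondrial one. The mitochondrial genes for Ile-GAT and for 3 of the tRNAs on which the results below turn are shown to make plain where the anticodon loop, the cleavage site, lies in each. The sequences are from mouse build GRCm38 with the GENCODE M21 annotation, are written 5′ to 3′ on the strand of the tRNA, and have the anticodon in capitals.
mt-Ti, isoleucine, chrM:3706-3774, plus strand: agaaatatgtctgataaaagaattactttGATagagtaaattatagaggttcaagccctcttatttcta
mt-Te, glutamate, chrM:14071-14139, minus strand: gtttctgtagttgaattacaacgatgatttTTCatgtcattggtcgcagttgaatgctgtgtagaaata
mt-Th, histidine, chrM:11546-11612, plus strand: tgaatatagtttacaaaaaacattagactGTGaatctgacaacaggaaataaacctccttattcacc
mt-Ts2, serine, chrM:11613-11671, plus strand: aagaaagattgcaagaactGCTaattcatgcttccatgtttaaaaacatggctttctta

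In these genes the anticodon occupies bases 30 to 32 of 69 in mt-Ti, 31 to 33 of 69 in mt-Te, 30 to 32 of 67 in mt-Th and 20 to 22 of 59 in mt-Ts2. A cut there would leave a 5′ fragment shorter than the 3′ one in each of the 4. The libraries were cut from gels at 14 to 40 nt of insert, which sets the longest fragment that could be counted. Whether any counted read came from these genes cannot be told from the names.

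The libraries held 5321436 to 5820315 counts in CNV and 5057142 to 12839386 counts in controls, control replicate 2 being the deepest. The tiRNAs contributed 16092 to 25467 of these in CNV libraries and 14960 to 48301 in control libraries, and each of the 38 tiRNAs had at least 1 count in each of the 6 libraries. Marker miRNAs of the labelled tissue were present, those of RPE at a lower sum in each CNV library than in any control. The 4 miR-204 and miR-211 arms of RPE summed to 4573 to 6546 CPM (counts scaled to a common library size) in CNV libraries and 6841 to 7042 CPM in controls, and the 2 miR-126a arms of endothelium to 35449 to 42881 CPM in CNV libraries and 35246 to 45069 CPM in controls. Sums of several other markers differed between the groups without overlap. The 3 leukocyte miRNA arms summed to 474 to 739.6 CPM in CNV libraries and 281 to 352 CPM in controls, and the 3 fibroblast arms to 54131 to 60776 CPM in CNV libraries and 43416 to 46909 CPM in controls. The 3 retinal neuron arms summed to 7818 to 12483 CPM in CNV libraries and 13852 to 21019 CPM in controls. The 3 photoreceptor arms, which overlapped narrowly, summed to 24736 to 49473 CPM in CNV libraries and 49348 to 75779 CPM in controls. The 3 skeletal muscle arms summed to 57437 to 90589 CPM in CNV libraries and 34304 to 91114 CPM in controls, control replicate 1 being the lowest. These sums overlapped, as did those of mural cell and surface epithelium markers. No listed marker arm was at 0, no marker miRNA passed the test, and the part of cell make-up in the tiRNA values was not tested. In bulk tissue, fewer cells of a type and less of an RNA per cell cannot be told apart.

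A few tRNAs supplied most tiRNA counts in CNV and in control tissue. Levels are given as CPM relative to a library total scaled by trimmed means of M-values (TMM), and were not divided by length, since a read spans a whole fragment. The 4 most abundant tiRNAs were tiRNA-Gly-GCC-003, tiRNA-Lys-CTT-002, tiRNA-Glu-CTC-002 and tiRNA-Ser-GCT-001, by mean CPM over the 6 libraries. They took 61.0% to 67.0% of the tiRNA counts in CNV libraries and 64.2% to 71.1% in control libraries, and the 8 most abundant took 77.7% to 84.6% over the 6 libraries. The order was not the same in each library: in CNV replicate 2 tiRNA-Glu-TTC-002 at 349.5 CPM stood above tiRNA-Ser-GCT-001 at 263 CPM. The tRNA with the most genes had few tiRNA counts: RefSeq lists 56 genes for Cys-GCA, more than for any of the other 21 tRNAs, yet its single tiRNA had 3 to 40 counts per library. Gly-GCC with 14 genes had the most counts and Lys-CTT with 24 genes the next most. Whether gene number and tiRNA counts go together over all these tRNAs was not tested.

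As a share of all counts, tiRNAs made up 0.378%, 0.479% and 0.284% in CNV replicates 1 to 3, and 0.396%, 0.376% and 0.296% in control replicates 1 to 3. The mean was 0.380% ± 0.0971 in CNV and 0.356% ± 0.0532 in controls (SD, n = 3 each), so the ranges overlapped and the difference of 0.0243 percentage points was smaller than either SD. Single libraries set its sign and size, since it was -0.0247 points without CNV replicate 2, -0.00582 without control replicate 3 and 0.0723 without CNV replicate 3. The 95% Wilson interval of a single library's share reached at most 0.00586 percentage points to either side. This covers counting error only, since reads without molecular identifiers are not independent molecules.

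As a share of the listed tsRNA counts, tiRNAs made up 4.30%, 4.52% and 4.40% in CNV replicates 1 to 3, and 6.12%, 7.87% and 5.80% in control replicates 1 to 3. The groups did not overlap, with a mean of 4.40% ± 0.110 in CNV and 6.60% ± 1.11 in controls (SD, n = 3 each). This share moved with its denominator. The listed tsRNAs held 58.6% ± 5.38 of the tsRNA total implied by the deposited CPM in CNV and 44.7% ± 5.26 in controls, without overlap. What that total counts is not given. With it as denominator, tiRNAs took 2.63%, 2.81% and 2.30% in CNV replicates 1 to 3, and 3.08%, 3.13% and 2.55% in control replicates 1 to 3, which overlapped. The tRFs of the glycine tRNA Gly-CCC made up 74.9% ± 3.47 of tsRNA counts in CNV and 64.7% ± 3.65 in controls (SD, n = 3 each). With those tRFs left out of the total, tiRNAs took 18.6%, 19.7% and 15.1% in CNV libraries and 18.3%, 19.9% and 17.6% in controls, which overlapped. That denominator was chosen after the values had been seen.

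**Figure D1:**
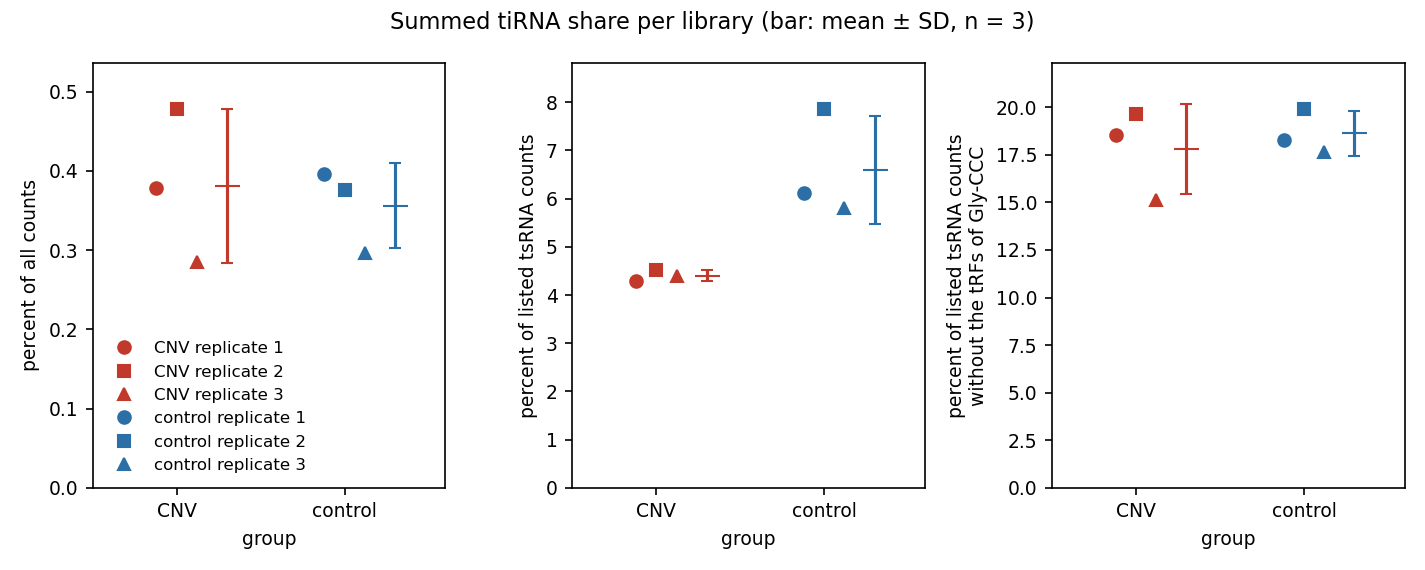
The summed tiRNA share in each library, as percent of all counts (left), of listed tsRNA counts (middle) and of listed tsRNA counts without the tRFs of Gly-CCC (right), with the group mean ± SD beside the 3 points of each group. The groups overlap at left and right, and in the middle the CNV libraries lie between 4.30% and 4.52% while the controls lie between 5.80% and 7.87%.

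None of the tiRNAs passed the test for a difference between CNV and control tissue, but all 4 glutamate tiRNAs stood higher at the mean in CNV and 3 of the 4 histidine tiRNAs lower. Low counts left out 3 of the 38: tiRNA-Cys-GCA-001, tiRNA-Lys-TTT-001 with 4 to 15 counts per library, and tiRNA-Val-CAC-005 with 4 to 20. Of the 35 tested, 0 reached an adjusted p under 0.05 in the quasi-likelihood test of edgeR, with p values adjusted over all 997 small RNAs tested by the Benjamini-Hochberg method, the smallest being 0.173. The same test called 3 of the 997, or 0.301%, all of them miRNAs. DESeq2 called 2 of the tiRNAs and 38 of the 997 small RNAs, or 3.81%, while limma-voom called 0 of the tiRNAs and 3 of the 997, or 0.301%.

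At an unadjusted p under 0.05, edgeR's test gave 9 tiRNAs higher in CNV, or 25.7% of the 35, and 2 lower, or 5.71%. Over all 997 small RNAs tested, 10.8% were higher at that level and 6.92% lower. The 9 were all 4 glutamate tiRNAs, 3 of the 4 tested valine tiRNAs, tiRNA-Met-CAT-001 and tiRNA-Ser-TGA-001, and the 2 were the histidine tiRNAs tiRNA-His-GTG-003 and tiRNA-His-GTG-004. The count of 9 rested on few libraries: it was 2 without CNV replicate 2 and also 2 without control replicate 2, 3 without CNV replicate 1, 5 without control replicate 3, 12 without CNV replicate 3 and 14 without control replicate 1. All 3 CNV values lay above all 3 control values for 3 tiRNAs, or 8.57%, against 11.4% of all small RNAs tested. They lay below for 2 tiRNAs, or 5.71%, against 8.93% of all small RNAs tested.

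The log2 fold change of CNV over control was above 0 for 24 of the 35 tested tiRNAs, or 68.6%, and below 0 for 11. It was above 0 for 53.6% of all 997 small RNAs tested and for 52.1% of the 265 tested tRFs of the same tRNAs. In alternatives that tested 35 tiRNAs, the 24 ran between 20 without CNV replicate 2 and 25 scaled by the miRNAs alone. The median log2 fold change of the 35 tiRNAs was 0.37. The median was 0.16 without CNV replicate 2, 0.21 without control replicate 2 and 0.56 without control replicate 1. Over all 997 small RNAs the median was 0.05, over the 541 tested miRNAs 0.01, and over the 265 tested tRFs of the same tRNAs 0.03. Total counts as the only scaling shifted the median of all small RNAs to -0.11, that of the tiRNAs to 0.22 and that of those tRFs to -0.12. The sign held under each scaling for 32 of the 35 tiRNAs, the exceptions being tiRNA-Lys-CTT-003, tiRNA-His-GTG-002 and tiRNA-Ile-GAT-001. The tRFs of the same tRNAs had 42 of 265, or 15.8%, higher and 16, or 6.04%, lower at an unadjusted p under 0.05 in edgeR's test, and 0 passed after adjustment.

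**Figure D2:**
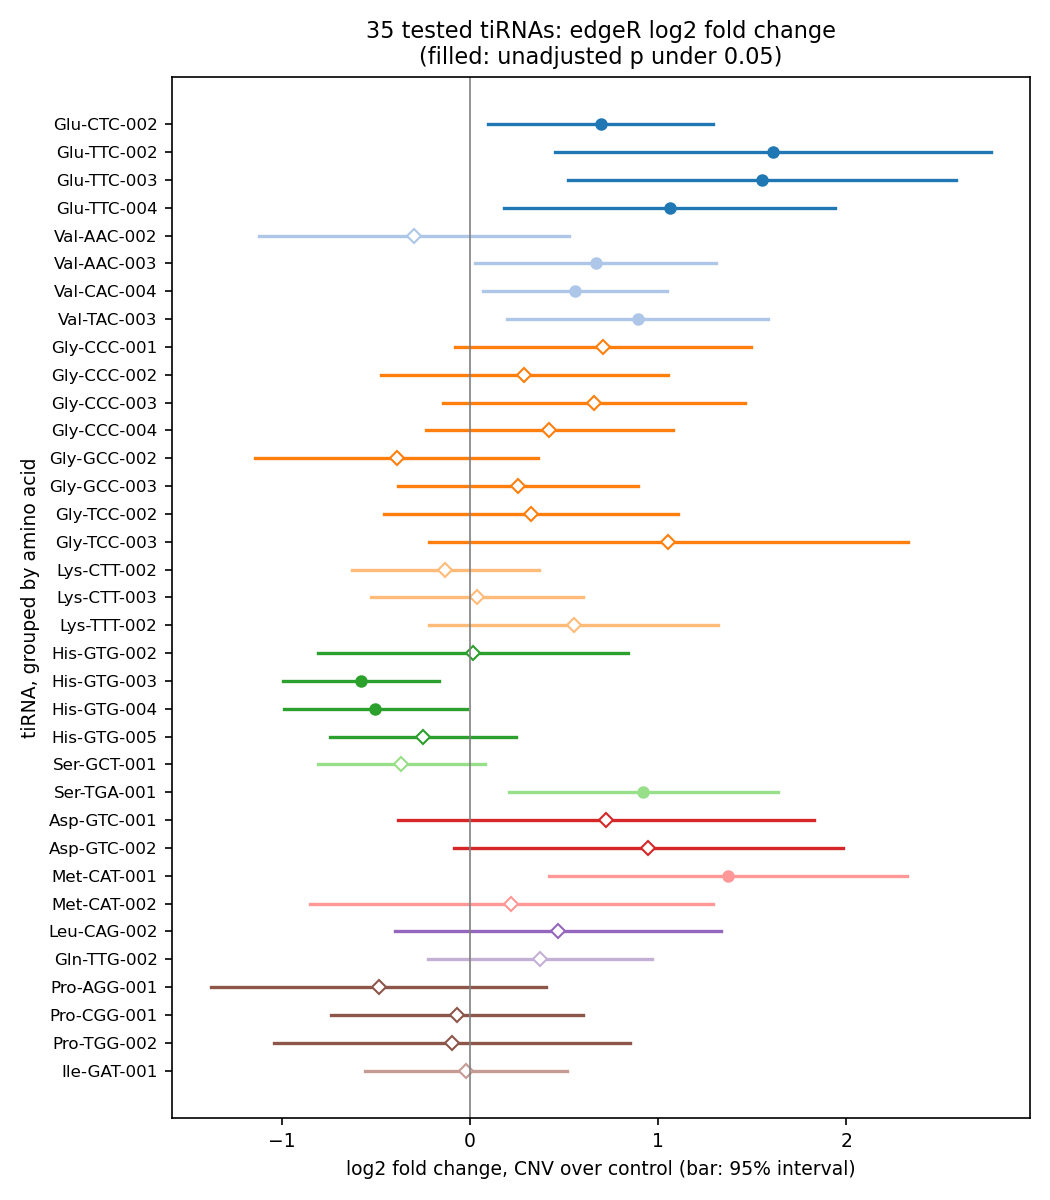
Log2 fold change of CNV over control for the 35 tested tiRNAs with a 95% interval derived from edgeR's quasi-likelihood test (n = 3 pools each), grouped and coloured by amino acid. Filled points mark an unadjusted p under 0.05. All 4 glutamate tiRNAs lie right of 0, between 0.70 and 1.61, and 3 of the 4 histidine tiRNAs lie left of it.

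The glutamate tiRNAs had the largest median log2 fold change of any amino acid with more than 2 tested tiRNAs, 1.31. The 3 fragments of the anticodon TTC stood at 1.06 to 1.61, and the single fragment of the anticodon CTC was lower, at 0.70. Glutamate tRNAs decode a codon pair, the anticodon CTC reading GAG and the anticodon TTC reading chiefly GAA. The summed glutamate level was 1057 ± 442 CPM in CNV and 533 ± 129 CPM in controls (SD, n = 3 each). Glutamate tiRNAs took 25.1%, 29.4% and 22.0% of the tiRNA counts in CNV replicates 1 to 3, and 18.1%, 11.3% and 18.3% in control replicates 1 to 3, with no overlap.

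tiRNA-Glu-TTC-002 stood at 235, 349.5 and 95.4 CPM in CNV replicates 1 to 3, and at 125, 44.7 and 53.7 CPM in control replicates 1 to 3. tiRNA-Glu-TTC-003 stood at 178, 246 and 76.0 CPM in CNV replicates 1 to 3, and at 88.5, 35.8 and 46.8 CPM in control replicates 1 to 3. For both fragments CNV replicates 1 and 2 were above all controls, while CNV replicate 3 lay between control replicate 1 and the other controls, so the groups overlapped. The log2 fold change of tiRNA-Glu-TTC-002 was 1.61 (SE 0.51, 95% interval 0.45 to 2.77), a 3.06-fold ratio, with an adjusted p of 0.185 in edgeR's quasi-likelihood test. It was 2.21 without control replicate 1 and 1.09 without CNV replicate 2, the ends of its range when single libraries were left out. That of tiRNA-Glu-TTC-003 was 1.55 (SE 0.45, 95% interval 0.52 to 2.58), a 2.93-fold ratio, with an adjusted p of 0.173 in the same edgeR test, and a range of 1.10 without CNV replicate 2 to 2.02 without control replicate 1. The DESeq2 test gave adjusted p values of 0.0440 for tiRNA-Glu-TTC-002 and 0.0298 for tiRNA-Glu-TTC-003. Over all alternatives the adjusted p ran between 6.66e-09 and 0.594 for tiRNA-Glu-TTC-002 and between 6.45e-08 and 0.587 for tiRNA-Glu-TTC-003, the lowest of both being edgeR's with no filter on low counts.

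The third fragment of that tRNA, tiRNA-Glu-TTC-004, stood at 70.4, 81.8 and 26.8 CPM in CNV replicates 1 to 3, and at 33.1, 21.1 and 31.9 CPM in control replicates 1 to 3. Here too CNV replicate 3 lay inside the range of the controls. Its log2 fold change was 1.06 (SE 0.39), with an adjusted p of 0.223 in edgeR's quasi-likelihood test. Without CNV replicate 3 the value was 1.33 with an adjusted p of 0.0440 in the same edgeR test, and with no filter on low counts and all 6 libraries the adjusted p was 0.00424. The highest adjusted p over the alternatives was 0.651. The sources used here do not say whether a read could be counted for more than 1 of the 3 Glu-TTC fragments, though no tiRNA had the same counts as another small RNA in all 6 libraries.

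The Glu-TTC tiRNAs summed to 484, 677 and 198 CPM in CNV replicates 1 to 3, and to 246, 102 and 132 CPM in control replicates 1 to 3. The red cell miRNA arms miR-451a and miR-144-3p summed to 2970.3, 2332 and 454 CPM in CNV replicates 1 to 3, and to 1483, 1285 and 609 CPM in control replicates 1 to 3. CNV replicates 1 and 2 were thus the highest libraries for both sums, as they were for the leukocyte, fibroblast and mural cell marker sums. CNV replicate 3 was the lowest for the red cell sum but stood above control replicates 2 and 3 for the Glu-TTC sum. Neither red cell arm was at 0 in any library, and the part of blood in the Glu-TTC values was not tested.

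tiRNA-Glu-CTC-002, the single tiRNA of the other glutamate anticodon, stood at 589.5, 814 and 409.6 CPM in CNV replicates 1 to 3, and at 401, 291 and 428 CPM in control replicates 1 to 3. Fragments of this tRNA are among the abundant ones in mammalian blood serum. CNV replicates 1 and 2 were above all controls and CNV replicate 3 was between control replicates 1 and 3. The fragment's log2 fold change was 0.70 (SE 0.26, 95% interval 0.10 to 1.29), with an adjusted p of 0.232 in edgeR's quasi-likelihood test.

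The tRFs of the glutamate tRNAs were set beside these. The most abundant tRF of Glu-CTC, tRF-Glu-CTC-013, averaged 1714 ± 324 CPM in CNV and 1028 ± 175 CPM in controls (SD, n = 3 each), without overlap, with a log2 fold change of 0.74 and an adjusted p of 0.141 in edgeR's test. The most abundant tRF of Glu-TTC, tRF-Glu-TTC-020, averaged 126 ± 36.2 CPM in CNV and 129.6 ± 24.7 CPM in controls, a log2 fold change of -0.04. The tRF of that tRNA with the smallest p, tRF-Glu-TTC-023, stood at 138, 163 and 88.9 CPM in CNV replicates 1 to 3, and at 96.4, 55.9 and 59.6 CPM in control replicates 1 to 3, a log2 fold change of 0.88 with an adjusted p of 0.189 in edgeR's test. As in the Glu-TTC tiRNAs, CNV replicates 1 and 2 were above all controls and CNV replicate 3 was below control replicate 1. The tRF of Glu-CTC with the smallest p, tRF-Glu-CTC-016, was lower in each CNV library, at 2.72 ± 1.82 CPM in CNV and 9.31 ± 1.28 CPM in controls (SD, n = 3 each), a log2 fold change of -1.74 with an adjusted p of 0.127 in edgeR's test. Of the tested tRFs, 5 of 19 of Glu-TTC were higher and 0 lower at an unadjusted p under 0.05 in edgeR's test, and 4 of 13 of Glu-CTC were higher and 1 lower. At that level 10.8% of all 997 small RNAs tested were higher and 6.92% lower. Among the 265 tested tRFs of the tRNAs with tiRNAs, 15.8% were higher and 6.04% lower. Summed by tRNA, the ratio of CNV to control means for Glu-TTC was 2.83 for tiRNAs and 1.19 for tRFs, while for Glu-CTC it was 1.62 for tiRNAs and 1.39 for tRFs. Of the counts of Glu-TTC tsRNAs, tiRNAs made up 31.4%, 35.7% and 20.1% in CNV replicates 1 to 3, and 20.4%, 11.6% and 13.6% in control replicates 1 to 3. The groups overlapped, since CNV replicate 3 was just below control replicate 1, and the difference between the tiRNA and tRF ratios was not tested.

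**Figure D3:**
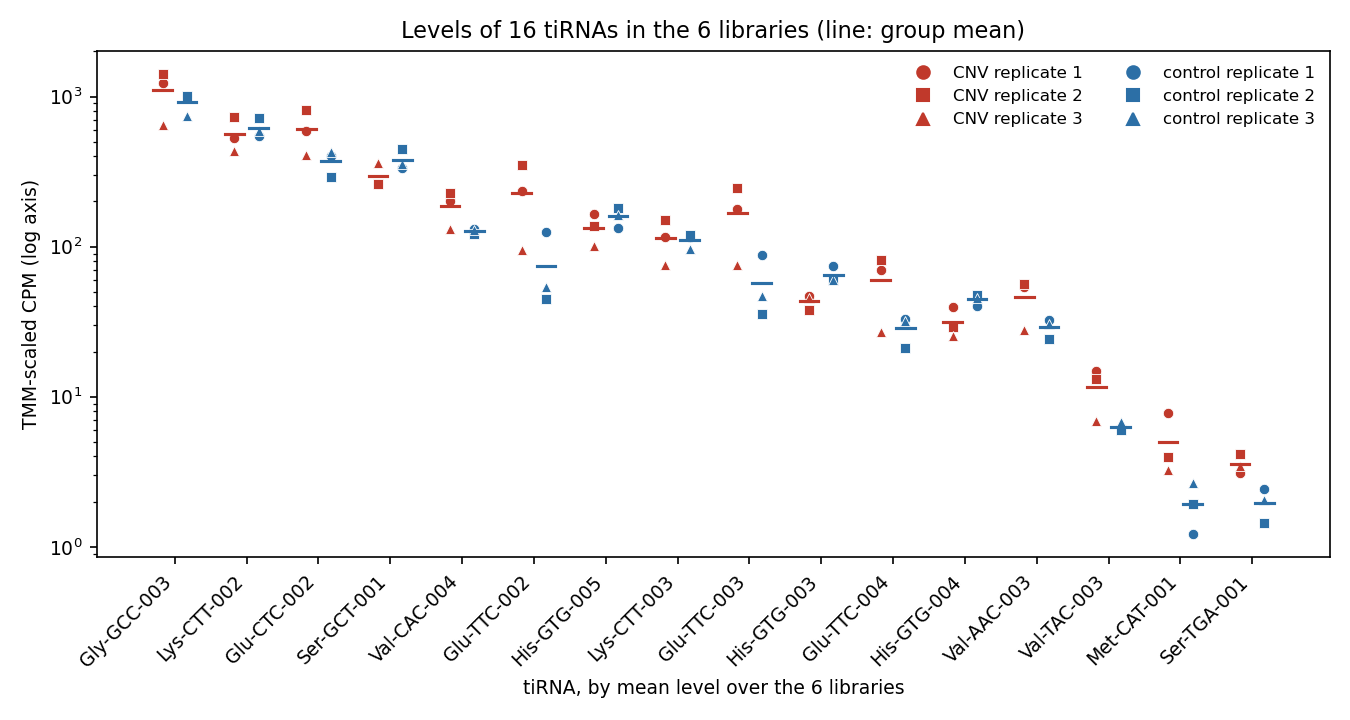
TMM-scaled CPM (log axis) of 16 tiRNAs in the 6 libraries, ordered by mean level, with CNV libraries in red left of control libraries in blue, a symbol for each replicate number and a line at the group mean. CNV replicate 3 (red triangle) is the lowest CNV library for all 3 Glu-TTC fragments, and for tiRNA-His-GTG-003 and tiRNA-His-GTG-004 the CNV values all lie below the control values.

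The valine tiRNAs were higher at the mean in CNV for all 3 valine anticodons. They took 6.38%, 5.96% and 6.09% of tiRNA counts in CNV replicates 1 to 3, and 4.91%, 4.42% and 5.58% in control replicates 1 to 3, without overlap. tiRNA-Val-CAC-004, the most abundant, stood at 201, 229 and 131 CPM in CNV replicates 1 to 3, and at 131, 121 and 129 CPM in control replicates 1 to 3. The controls lay close together, and CNV replicate 3 was level with the highest of them. In log2 terms its fold change was 0.56 (SE 0.21), with an adjusted p of 0.235 in edgeR's quasi-likelihood test.

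tiRNA-Val-AAC-003 stood at 54.1, 56.5 and 28.0 CPM in CNV replicates 1 to 3, and at 32.6, 24.2 and 30.6 CPM in control replicates 1 to 3. CNV replicates 1 and 2 were above all controls and CNV replicate 3 was among them, with a log2 fold change of 0.67 (SE 0.28, adjusted p 0.270 in edgeR's quasi-likelihood test). tiRNA-Val-TAC-003 stood at 14.8, 13.1 and 6.88 CPM in CNV replicates 1 to 3, and at 6.04, 5.97 and 6.74 CPM in control replicates 1 to 3. The groups did not overlap, but CNV replicate 3 exceeded the highest control by little, and the fragment had 33 to 83 counts per library. The log2 fold change of this fragment was 0.89 (SE 0.30), with an adjusted p of 0.202 in edgeR's quasi-likelihood test. The remaining tested valine fragment, tiRNA-Val-AAC-002, had a log2 fold change of -0.30.

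Valine tRNAs differed in how much of their tsRNA count was tiRNA. For Val-CAC it was 89.7% ± 4.01 in CNV and 89.9% ± 0.299 in controls (SD, n = 3 each), so that almost all listed fragments of this tRNA were tiRNAs in both groups. For Val-TAC it was 9.07% to 20.7% in CNV libraries and 7.84% to 8.77% in controls, without overlap. The summed tRFs of Val-TAC had a ratio of CNV to control means of 0.96, and its tiRNA a ratio of 1.86.

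The glycine tiRNAs were the most abundant and took nearly the same share of tiRNA counts in both groups, 32.7% ± 3.78 in CNV and 32.9% ± 3.27 in controls (SD, n = 3 each). tiRNA-Gly-GCC-003, whose tRNA gives one of the best known 5′ fragments of mammalian serum and sperm, stood at 1233, 1419.8 and 647 CPM in CNV replicates 1 to 3, and at 1012, 1006 and 741 CPM in control replicates 1 to 3. CNV held both the highest library and the lowest. Its log2 fold change was 0.26 (SE 0.28, 95% interval -0.38 to 0.90), with an adjusted p of 0.694 in edgeR's quasi-likelihood test. Of the 8 glycine tiRNAs, 7 had a log2 fold change above 0 and 0 reached an unadjusted p under 0.05 in edgeR's test, with values of -0.39 to 1.06.

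The tRFs of the glycine tRNAs had other values. The most abundant tRF of Gly-GCC, tRF-Gly-GCC-016, averaged 3186 ± 696 CPM in CNV and 2202 ± 395 CPM in controls, with a log2 fold change of 0.53 and an adjusted p of 0.242 in edgeR's test. The tRF of Gly-GCC with the smallest p, tRF-Gly-GCC-018, averaged 236 ± 9.11 CPM in CNV and 344 ± 27.1 CPM in controls (SD, n = 3 each), lower in all 3 CNV libraries, with a log2 fold change of -0.54 and an adjusted p of 0.141 in the same edgeR test. Of the 17 tested tRFs of Gly-GCC, 7 were higher and 2 lower at an unadjusted p under 0.05 in that test. Over all 997 small RNAs tested, 10.8% were higher and 6.92% lower. The median log2 fold change of the 17 was 0.35. For Gly-CCC, the summed ratio of CNV to control means was 1.53 for the 4 tiRNAs and 2.06 for the 30 tRFs. Its tiRNAs made up a small share of its own tsRNA counts, 0.289%, 0.271% and 0.216% in CNV replicates 1 to 3, and 0.388%, 0.392% and 0.296% in control replicates 1 to 3, without overlap.

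The lysine tiRNAs of Lys-CTT were close between the groups in level. tiRNA-Lys-CTT-002, the most abundant after that of Gly-GCC, stood at 528, 734 and 436 CPM in CNV replicates 1 to 3, and at 547, 722 and 588 CPM in control replicates 1 to 3. The fragment's log2 fold change was -0.13 (SE 0.22, 95% interval -0.63 to 0.37), with an adjusted p of 0.827 in edgeR's quasi-likelihood test. tiRNA-Lys-CTT-003 stood at 116, 150.3 and 75.7 CPM in CNV replicates 1 to 3, and at 116, 120.1 and 96.4 CPM in control replicates 1 to 3. In log2 terms its fold change was 0.04 (SE 0.25), with an adjusted p of 0.9497 in edgeR's test and a sign that turned with the scaling. In both fragments CNV replicate 3 was the lowest of the 6 libraries. As a share of tiRNA counts, lysine took 15.9%, 18.1% and 19.2% in CNV replicates 1 to 3, and 19.5%, 24.9% and 22.9% in control replicates 1 to 3, which did not overlap. Summed lysine tiRNAs stood at 711 ± 195 CPM in CNV and 752 ± 96.2 CPM in controls (SD, n = 3 each). Of the 13 amino acids, only glutamate and valine (higher in CNV) and lysine and histidine (lower) had shares without overlap. Beside this, 11.4% of all 997 small RNAs tested had CPM higher in CNV without overlap, and 8.93% had CPM lower. Within these amino acids, the shares of Glu-TTC, Val-CAC, Val-TAC, Lys-CTT and His-GTG did not overlap, while those of Glu-CTC, Val-AAC and Lys-TTT did. Shares of the same total are not independent of each other.

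The histidine tiRNAs were lower at the mean in CNV for 3 of the 4 fragments, with a median log2 fold change of -0.38. The tRNA His-GTG carries queuosine, a modified base in the anticodon loop that protects tRNAs from cleavage there, and its fragments are prominent among those made in human breast and prostate cancer cells that depend on sex hormones. tiRNA-His-GTG-003 stood at 47.1, 37.8 and 45.2 CPM in CNV replicates 1 to 3, and at 74.7, 60.1 and 59.6 CPM in control replicates 1 to 3. Each CNV library lay below each control. The log2 fold change of this fragment was -0.58 (SE 0.18, 95% interval -0.99 to -0.16), a ratio of 1.49 of control over CNV, with an adjusted p of 0.186 in edgeR's quasi-likelihood test and between 0.0647 and 0.572 over the alternatives.

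tiRNA-His-GTG-004 stood at 39.7, 29.3 and 25.4 CPM in CNV replicates 1 to 3, and at 40.0, 47.7 and 45.7 CPM in control replicates 1 to 3. The groups did not overlap, although CNV replicate 1 lay just under control replicate 1. Its log2 fold change was -0.50 (SE 0.21), with an adjusted p of 0.271 in edgeR's quasi-likelihood test. tiRNA-His-GTG-005, the most abundant histidine fragment, stood at 165, 137 and 100.4 CPM in CNV replicates 1 to 3, and at 134, 182 and 162 CPM in control replicates 1 to 3. These overlapped, with a log2 fold change of -0.25 (SE 0.22) and an adjusted p of 0.623 in the same edgeR test. With total counts as the only scaling its groups did not overlap.

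The remaining histidine fragment, tiRNA-His-GTG-002, averaged 95.8 ± 33.0 CPM in CNV and 94.6 ± 47.1 CPM in controls (SD, n = 3 each). The histidine share of tiRNA counts was 9.0%, 5.52% and 9.0% in CNV replicates 1 to 3, and 11.1%, 10.7% and 10.6% in control replicates 1 to 3, without overlap. Within the tsRNAs of His-GTG, tiRNAs took 33.0%, 28.3% and 35.5% in CNV replicates 1 to 3, and 36.6%, 43.0% and 42.8% in control replicates 1 to 3, again without overlap. The most abundant tRF of this tRNA, tRF-His-GTG-022, averaged 339 ± 102 CPM in CNV and 287 ± 141 CPM in controls, with a log2 fold change of 0.24 and an adjusted p of 0.786 in edgeR's test. Summed by tRNA, the ratio of CNV to control means for His-GTG was 0.839 for tiRNAs and 1.21 for tRFs, a difference that was not tested.

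The serine tiRNAs went different ways at the mean. tiRNA-Ser-GCT-001 stood at 262, 263 and 362 CPM in CNV replicates 1 to 3, and at 334, 450.0 and 358 CPM in control replicates 1 to 3. CNV replicates 1 and 2 were below all controls and CNV replicate 3 was above control replicates 1 and 3. The fragment's log2 fold change was -0.36 (SE 0.19, 95% interval -0.81 to 0.08), with an adjusted p of 0.389 in edgeR's quasi-likelihood test. tiRNA-Ser-TGA-001 stood at 3.11, 4.18 and 3.44 CPM in CNV replicates 1 to 3, and at 2.42, 1.44 and 2.04 CPM in control replicates 1 to 3. All CNV values were higher, yet the fragment had only 10 to 21 counts per library, with a log2 fold change of 0.92 (SE 0.32) and an adjusted p of 0.202 in the same edgeR test.

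Among the rest, the methionine fragment tiRNA-Met-CAT-001, of the anticodon shared by the initiator and elongator tRNAs, stood at 7.78, 3.98 and 3.27 CPM in CNV replicates 1 to 3, and at 1.21, 1.94 and 2.65 CPM in control replicates 1 to 3. CNV was higher in all 3 libraries, on 7 to 40 counts per library. In log2 terms its fold change was 1.37 (SE 0.42, 95% interval 0.42 to 2.32), with an adjusted p of 0.177 in edgeR's quasi-likelihood test and between 0.0256 and 0.507 over the alternatives. tiRNA-Ile-GAT-001, the fragment with no nuclear gene of its anticodon, averaged 4.94 ± 0.767 CPM in CNV and 5.003 ± 0.102 CPM in controls (SD, n = 3 each), a log2 fold change of -0.02 with a 95% interval of -0.56 to 0.52. The 3 proline tiRNAs had log2 fold changes of -0.49 to -0.07 and the 2 aspartate tiRNAs, whose tRNA also carries queuosine, 0.72 and 0.95, with unadjusted p values of 0.0675 to 0.827 in edgeR's test over these 5. The 19 tested tiRNAs not given by library had log2 fold changes of -0.49 to 1.06, mean levels of 1.92 to 107 CPM over the 6 libraries and unadjusted p values of 0.0675 to 0.962 in the same edgeR test.

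**Figure D4:**
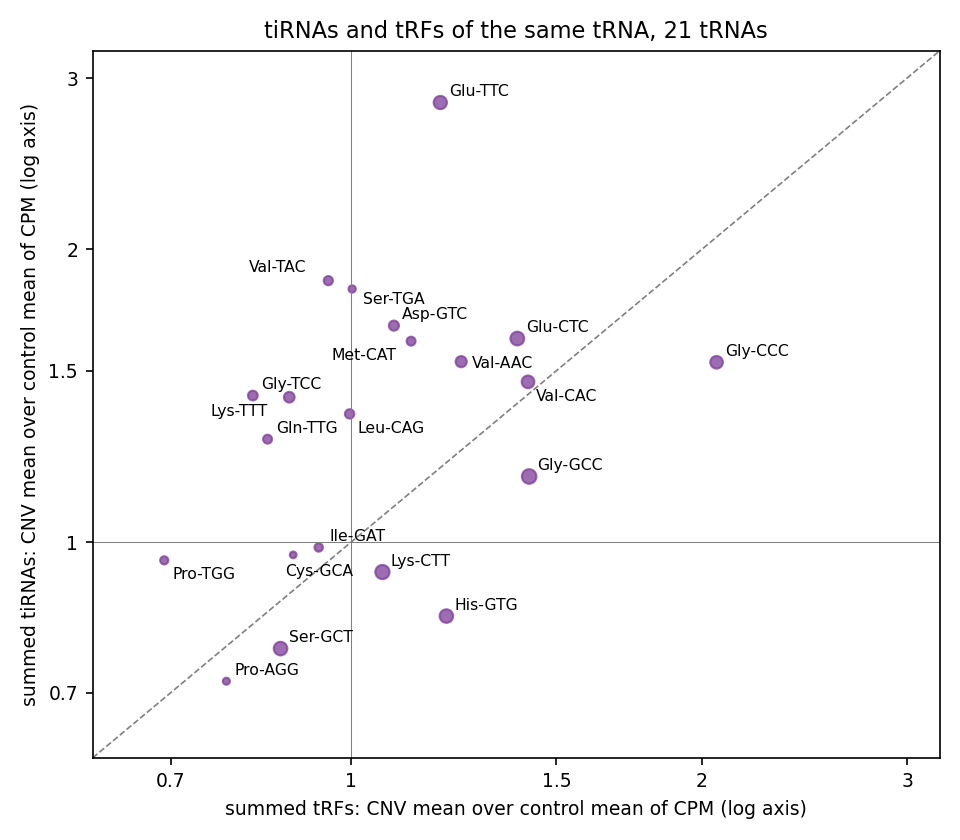
For each of 21 tRNAs with both kinds of fragment, the ratio of CNV to control means of the summed tiRNA CPM (vertical, log axis) against that of the summed tRF CPM (horizontal, log axis), with larger points for higher tiRNA levels and a dashed line where both ratios are equal. Glu-TTC lies far above the line at 2.83 against 1.19, and Gly-CCC and His-GTG lie below it.

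Across the 21 tRNAs with both tiRNAs and tRFs, the tiRNA share of the tRNA's own tsRNA counts had a higher mean in CNV for 14 and a lower mean for 7. The groups did not overlap in this share for 2 that were higher in CNV, Val-TAC and Ser-TGA, and 2 that were lower, His-GTG and Gly-CCC. Beside this, 11.4% of all 997 small RNAs tested had CPM higher in CNV without overlap, and 8.93% had CPM lower. For Ser-TGA the share was small, 1.74% ± 0.223 in CNV and 0.995% ± 0.359 in controls (SD, n = 3 each). For Lys-CTT, Ser-GCT and Glu-CTC it differed by less than the larger SD or overlapped, with 48.1% ± 6.72 in CNV and 52.6% ± 9.18 in controls for Lys-CTT, 51.0% ± 4.09 in CNV and 53.4% ± 1.502 in controls for Ser-GCT, and 11.0% ± 1.42 in CNV and 9.75% ± 1.09 in controls for Glu-CTC.

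The CNV libraries were spread widely in their tiRNA levels, CNV replicate 3 lying near the controls. The median log2 deviation of the 35 tested tiRNAs from the control mean was 0.61, 0.73 and 0.03 in CNV replicates 1 to 3, and 0.18, -0.06 and -0.03 in control replicates 1 to 3. Over all 997 small RNAs tested it was 0.06, 0.05 and 0.02 in CNV replicates 1 to 3, and 0.01 to 0.02 in the controls. CNV replicate 2 was the highest library for 17 of the 35 tiRNAs, CNV replicate 1 for 8 and CNV replicate 3 for 0, while CNV replicate 3 lay within the range of the controls for 21. Control replicate 1 stood above the control mean for 24 of the 35, with aspartate and Glu-TTC fragments among them. With 3 pools a group, these differences between libraries set the width of the intervals given above.

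**Figure D5:**
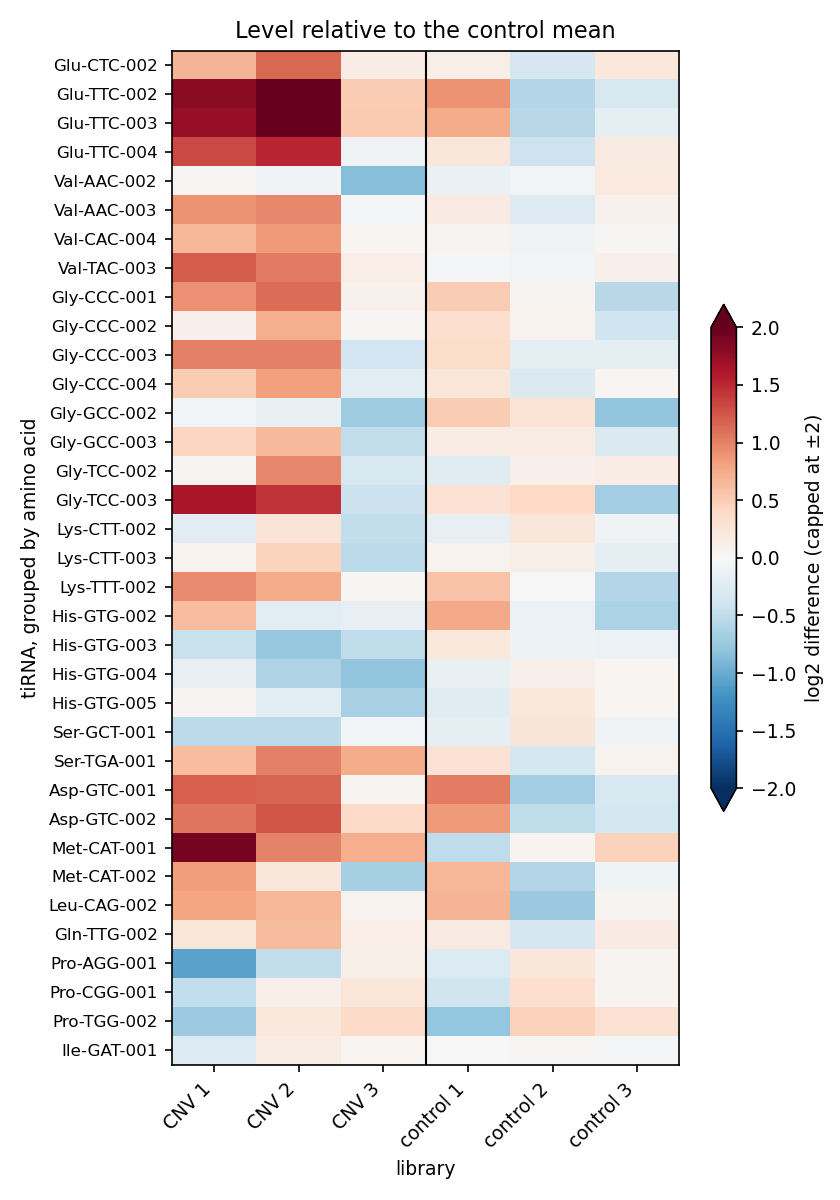
Log2 level of each of the 35 tested tiRNAs in each library relative to the mean of the 3 control libraries (colour, capped at ±2), grouped by amino acid, with CNV libraries left of the black line and controls right of it. CNV replicates 1 and 2 are dark for the glutamate fragments, whereas CNV replicate 3 is pale, in step with its median deviation of 0.03.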

How the data were processed

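Trizol-extracted RNA was ligated to small RNA adapters, cut from gels at inserts of 14 to 40 nt and sequenced on an Illumina NextSeq instrument, per the labels' protocols. No step that repairs RNA ends or removes base modifications is named there, and its part in which tRNA fragments were captured was not tested. The authors' deposited tables give a read count for each small RNA in each library. The submitters' processing notes name Bowtie. Its version, the genome build and the treatment of reads that match more than 1 small RNA are not stated there or in the labels. The deposited CPM column was used only for the tsRNA total it implies.

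Groups and replicate numbers came from the sample titles. With R 4.3.3, small RNAs were kept by filterByExpr of edgeR 4.0.16 (minimum count 10, minimum total 15), which left 541 miRNAs, 421 tRFs and 35 tiRNAs, scaled together by TMM and tested with edgeR's quasi-likelihood test with no covariate, Benjamini-Hochberg adjustment over all 997 and a threshold of 0.05. The script was tested on simulated data. A prior count of 2 entered the log2 values of single libraries. Shares and sums over several tiRNAs carry no test.

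Values per library were given for the 8 most abundant tiRNAs, for those at an unadjusted p under 0.05 and for those whose groups did not overlap, 16 in all. Of the tRFs, only the most abundant and the one with the smallest p of the tRNAs of those 8 were open to naming. Members, lists and tests were chosen with earlier results of these data known. Alternatives were other scalings and filters, DESeq2 1.42.0, limma-voom (limma 3.58.1), a replicate block and leaving out each library.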

Additional observations from a re-analysis of the deposited data

How the results depend on the processing

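For the 16 tiRNAs given by library, 252 values were recomputed over 16 settings: 235 kept the direction and the side of the 0.05 threshold, 8 came to pass it, 0 ceased to pass it and 9 turned sign. DESeq2 gave tiRNA-Ser-TGA-001 no adjusted p, so that value is not among them. The median log2 fold change of the tested tiRNAs ran between 0.16 and 0.56. The number of tiRNAs called was 4 of 38 with no filter on low counts, 2 of 35 with DESeq2 and 1 of 35 with the replicate block. It was 0 to 1 of 35 when single libraries were left out. All small RNAs called numbered 5 of 997 scaled by the miRNAs alone, 88 of 2334 with no filter and 0 of 442 at a mean of at least 20 CPM. They numbered 38 of 997 with DESeq2 and 36 of 997 with the replicate block. Without single libraries 0 to 24 were called, of 1020 to 1037 tested. For the tRFs of the same tRNAs the numbers were 29 of 288 with no filter, 13 of 265 with DESeq2, 12 of 265 with the block and 0 to 5 without single libraries.

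The block, which treats equal replicate numbers as pairs, gave tiRNA-Glu-TTC-003 a log2 fold change of 1.49 with an adjusted p of 0.0490 in edgeR's quasi-likelihood test. Deviations of equally numbered libraries correlated at 0.287, 0.030 and 0.172, in each case the highest correlation of that CNV library with any control. Control replicate 2, however, correlated best with CNV replicate 3 (0.152). The labels do not say that equal numbers mark a shared litter, day or batch, so the numbers were not taken as pairs. tiRNA-Lys-CTT-003 turned to -0.13 with total counts, -0.0607 with tsRNAs alone, -0.0484 with no filter, -0.0181 with limma-voom and -0.00593 with the block, and ran between -0.27 and 0.18 without single libraries. tiRNA-Gly-GCC-003 ran between -0.0272 and 0.45 without single libraries. The cause was not tested.

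With the tsRNA total implied by the deposited CPM as denominator, the tiRNA share differed by -0.34 percentage points, CNV minus control, in place of 0.0243 of all counts and -2.19 of listed tsRNA counts. Without the tRFs of Gly-CCC the last was -0.84. Fragments with few counts, such as tiRNA-Met-CAT-001 and tiRNA-Ser-TGA-001, rest on depth that limits their precision, and 3 pools a group limit all tests.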
